A study of Homo sapiens with 8 samples.

Results

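The origin licensing genes are the genes whose products mark DNA replication origins and load the replicative helicase onto them. The 10 genes described here were chosen by name, as the 6 subunits of the origin recognition complex (ORC1 to ORC6), the loading factors CDC6 and CDT1, the CDT1 inhibitor geminin (GMNN) and DBF4, and were found through the RefSeq accession of their probes. They were measured by 15 probes, and all 10 had a value on all 8 arrays, out of 22439 genes that could be named and 12862 with a value on every array. RNA of treated cells (Cy5, red) was hybridized together with RNA of control cells of the same line (Cy3, green) to Agilent oligonucleotide arrays on 1 slide, with no dye swap. EBC-1 and SK-MES-1, both labelled lung squamous cell carcinoma, were transfected with miR-150-3p, with 1 array each. SBC-3, labelled small cell lung cancer, was transfected with siDONSON-1, siDONSON-2 or siDONSON-3, siRNAs against DONSON, a replication fork protein, with 1 array each. A549, labelled lung adenocarcinoma, had LOXL2, a lysyl oxidase of the extracellular matrix, edited with CRISPR/Cas9, with 1 array each of A549-GE1, A549-GE2 and A549-GE3. The controls of the transfections were called both mock and untransfected, and those of the editing were A549 cells with no editing. The labels give no harvest time, while the methods of the study give a common transfection time for its experiments in squamous cells other than viability assays. The labels do not say whether the edited A549 populations are clones, nor whether controls or treated samples of a line were separate cultures, so that p-values measure the spread between these arrays, which may be technical.

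Before a cell replicates its DNA, the origin recognition complex binds origins, and CDC6 and CDT1 join it to load the MCM2 to MCM7 helicase, a step called licensing. Licensing is limited to the time between late mitosis and the end of G1. Geminin then binds and blocks CDT1, which is also degraded in S phase, so that no origin is licensed again in the same cycle. DBF4 is the activating subunit of the CDC7 kinase, which fires licensed origins. Many of these genes are transcribed by E2F factors as cells enter S phase, so their mRNA levels are known to follow proliferation. ORC2 to ORC5 form the more stable core of the complex, while ORC1 is removed and replaced with each cycle.

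The targeted genes served as a check of the labels. The log2 ratio of treated over control for DONSON was -2.15, -1.79 and -2.11 on the arrays of siDONSON-1, -2 and -3, and that of LOXL2 was -2.49, -2.67 and -2.59 on the arrays of A549-GE1, -GE2 and -GE3. Both were lower on all 3 arrays of their group (limma adjusted p = 0.00328 and 0.00448). The markers of the labelled tissues were partly absent from the control channel: of 6 squamous markers, EBC-1 had only SOX2 well above background and SK-MES-1 had TP63, SOX2 and PKP1, while KRT5 and KRT6A were not well above background in either. Of 6 small cell markers, SBC-3 had NEUROD1, CHGA and SYP, and of 6 adenocarcinoma markers, A549 had 4, the same number as each squamous line. Markers were also found outside their labelled tissue. SBC-3 had 2 squamous markers, TP63 and SOX2, and 2 adenocarcinoma markers, KRT7 and AKR1C1. A549 had SOX2 and CHGA, and CHGA was higher there than in SBC-3. NCAM1, a small cell marker, was well above background in SK-MES-1 and not in SBC-3. Between 14759 and 16176 genes had a value per array.

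The first comparison asked how far the licensing genes changed when miR-150-3p was introduced into squamous cells. In EBC-1, ORC6, ORC1, CDC6, CDT1, DBF4 and GMNN were lower after transfection by 2.15- to 4.60-fold. In SK-MES-1 no member was lower by 2-fold. As each line had 1 array, its own spread is unknown and no test was made within a line. Each value is given with the error that the scanner software computes within an array, which covers technical noise only. It was averaged over the spots and probes of a gene and not reduced for their number. In EBC-1, 6 of 10 members lay below a log2 ratio of -1, beside 6.04% of all 14759 genes with a value. In SK-MES-1, 0 of 10 did, beside 1.27% of 16176 genes. The median over the 10 members was -1.30 in EBC-1 against -0.13 in SK-MES-1, and that of all genes was 0.05 and 0.02. RNA of a whole culture was measured, so fewer cells in the phases that use these genes and less of their RNA per cell cannot be told apart.

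**Figure D1:**
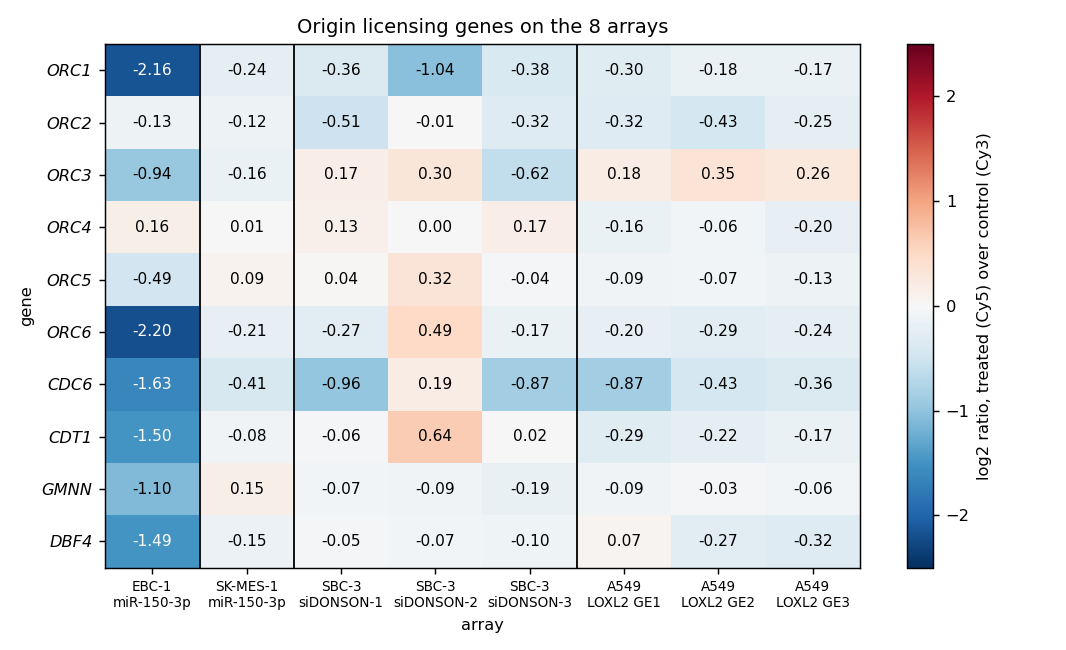
Log2 ratio of treated over control for the 10 licensing genes (rows) on the 8 arrays (columns), with each value printed and lower values in blue. The EBC-1 column holds the lowest values, down to -2.20 for ORC6, and no other array has a value below -1 except that of siDONSON-2 for ORC1, at -1.04.

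Among the subunits of the origin recognition complex, ORC1, which carries the ATPase activity that starts helicase loading, had a processed intensity of 106 in transfected and 473 in control EBC-1 cells, and 289 against 342 in SK-MES-1. Its log2 ratio was -2.16 (software error 0.30) in EBC-1 against -0.24 (0.21) in SK-MES-1. ORC6, the smallest subunit, had an intensity of 342 against 1573 in EBC-1 and 323 against 373 in SK-MES-1. Its log2 ratio was -2.20 (0.29) and -0.21 (0.21). ORC6 was printed on 10 spots of each array, whose log2 ratios ran from -2.37 to -2.07 in EBC-1 and from -0.29 to -0.06 in SK-MES-1. Only 0.56% of the genes with a value in EBC-1 were lower than ORC6 and 0.60% were lower than ORC1, against 22.1% and 19.1% in SK-MES-1.

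The core subunits were closer to 0. ORC3 was at -0.94 (0.31) in EBC-1, with -1.03 and -0.85 at its probes, and at -0.16 (0.21) in SK-MES-1. ORC5 was at -0.49 (0.21) in EBC-1 against 0.09 (0.21) in SK-MES-1. ORC2 was at -0.13 (0.22) and -0.12 (0.21), nearly the same in both lines. ORC4 was at 0.16 (0.36) and 0.01 (0.24). The probes of ORC4 were on opposite sides of 0 in EBC-1, at -0.10 for the brighter probe and 0.41 for a dim probe that was not well above background in the control channel. In EBC-1, therefore, ORC1 and ORC6 lay more than 1 log2 unit below each of the other 4 subunits by the processed intensities. With normexp background correction and loess, described below, this did not hold for ORC1, at -0.71. The probes of ORC3 were then at -0.13 and -0.43 and those of ORC5 at -0.23 and -0.39, less than 1 log2 unit above it.

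CDC6, the ATPase that joins the origin recognition complex on DNA, had an intensity of 82.0 against 255 in EBC-1 and 106 against 141 in SK-MES-1. Its log2 ratio was -1.63 (0.27) in EBC-1 against -0.41 (0.22) in SK-MES-1, the lowest of the 10 members in SK-MES-1, where 9.65% of genes were lower. CDT1, which brings the helicase to the origin, was at -1.50 (0.25) and -0.08 (0.20). Geminin was at -1.10 (0.23) in EBC-1 against 0.15 (0.20) in SK-MES-1, on opposite sides of 0. DBF4 was at -1.49 (0.25) and -0.15 (0.21). In SK-MES-1, 7 of 10 members were below 0, beside 47.5% of all genes. Each of the 10 values lay within the 95% limits of its software error around 0, although the 10 spots of ORC6 were all below 0.

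**Figure D2:**
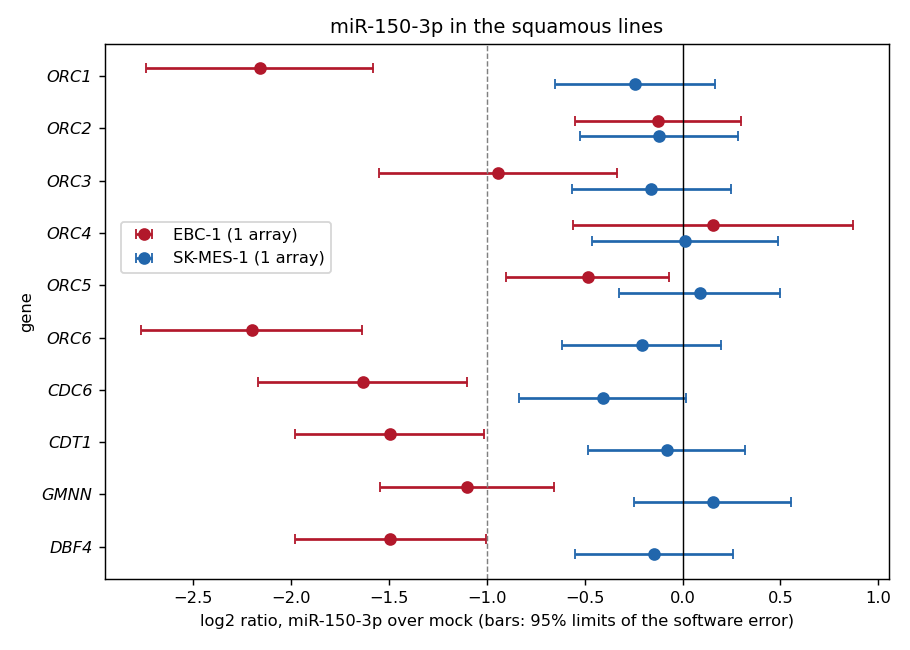
Log2 ratio of miR-150-3p over mock for each licensing gene in EBC-1 (red) and SK-MES-1 (blue), 1 array each, with bars for the 95% limits of the software error and a dashed line at -1. The EBC-1 values of ORC1, ORC6, CDC6, CDT1, DBF4 and GMNN lie to the left of the dashed line, and the bars of the lines do not overlap for these 6 genes, while those of ORC2 and ORC4 nearly coincide.

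The control levels, given as log2 green intensities relative to the 75th percentile of the array, also differed between the squamous lines. ORC6 was at 2.84 in EBC-1 against 0.85 in SK-MES-1, CDC6 at 0.21 against -0.56 and DBF4 at 1.77 against 0.88. These 3 genes were also higher in EBC-1 controls when levels were set against the median of the probes above background, by 1.51, 0.29 and 0.40, and with normexp, by 1.11, 0.23 and 0.36. The sign of the difference between the lines depended on the scaling for the other 3 genes that were below -1 in EBC-1. With the median it was -0.12 for CDT1, -0.10 for ORC1 and -0.30 for GMNN, against 0.37, 0.39 and 0.19 with the 75th percentile.

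The EBC-1 values depended on how background was treated. With normexp background correction, which here adds 50 to both channels, and loess, 2 of 10 members were below -1, CDT1 at -1.26 and ORC6 at -1.40, beside 1.75% of all genes. CDC6 was then at -0.45 and ORC1 at -0.71. Over both lines as 2 samples, the mean log2 ratio was -1.20 (SE 0.39) for ORC1, -1.20 (0.40) for ORC6 and -1.02 (0.35) for CDC6, and 0 of 10 members passed (limma adjusted p from 0.109 to 0.638), beside 1.43% of all genes lower and 1.16% higher. At an unadjusted p under 0.05, 5 of 10 did, beside 28.2%.

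**Figure D3:**
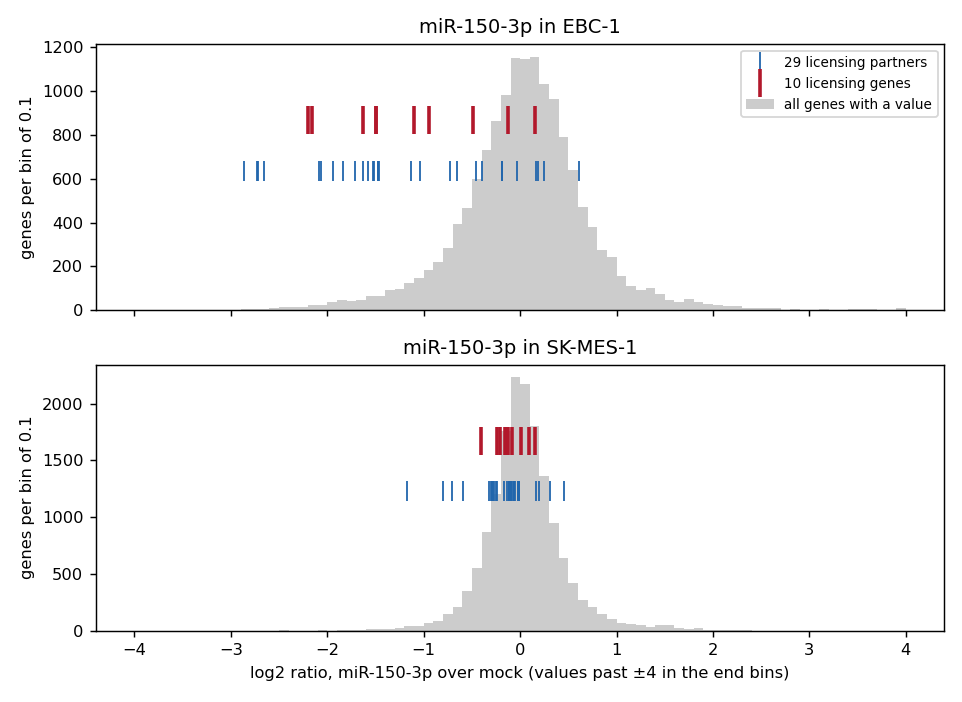
Number of genes in bins of 0.1 of the log2 ratio (grey) in EBC-1 (top) and SK-MES-1 (bottom), with a red tick for each of the 10 licensing genes and a blue tick for each of 29 partner genes. In EBC-1 most red and blue ticks stand in the left flank, with medians of -1.30 and -1.47, and in SK-MES-1 they stand near the peak, with medians of -0.13 and -0.12.

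The partners of licensing were a list of 29 genes, all with a value on every array. In EBC-1, 18 of 29 were below -1, beside 6.04% of all genes, a share that also stands beside the EBC-1 counts below. In SK-MES-1 1 of 29 was, beside 1.27% of all genes. It was CCNE1, which encodes cyclin E1, at -1.18. The helicase subunits MCM2 to MCM7 and their binding protein MCMBP were all below -1 in EBC-1 (7 of 7), with a median of -1.58. Of the kinases and cyclins that fire origins, 5 of 6 were below -1. Of the genes that control the breakdown of CDT1, CDC6 or geminin, 4 of 8 were. They were DTL, SKP2 and CDC20, which belong to ubiquitin ligases, and FBXO5, which inhibits the ligase that degrades geminin. Of the E2F group, 2 of 5 were. None of the 3 chromatin partners was. The lowest 3 partners in EBC-1 were E2F2 at -2.87, CCNE2 (cyclin E2) at -2.73 and E2F1 at -2.72, and their values in SK-MES-1 were -0.80, -0.31 and -0.59. Lists of S phase and G2/M genes moved with the members. In EBC-1, 14 of 15 and 14 of 14 measured genes were below -1, beside 6.04% of all genes, with medians of -1.93 and -1.53. Their medians in SK-MES-1 were -0.24 and -0.09. Cell phase was not measured on these arrays, and its part in the values of the members was not tested.

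Since several members were low together in EBC-1, their promoters were searched for E2F-type motifs. The letters searched were TTNNCGC, with each N either C or G, on both strands, in the 250 bases before and 50 bases after the start of each gene (RefSeq, GRCh38.p14). Matches on opposite strands may overlap. All 10 members had an entry. At least 1 match was present for 5 of 10, ORC1, ORC3, CDC6, CDT1 and GMNN, and in 13.0% of 35116 promoters of the same length. ORC4 and GMNN had more than 1 entry, and GMNN had the match in only 1 of its entries. The sequences below are 30 bases around the match, on the strand of the gene and with the match in capitals. They show how the element differs between members, with overlapping matches on both strands in ORC1 and a repeated one in CDT1.
ORC1, chr1:52404428-52404457, minus strand: gggccacgccgaTTGGCGCGAAgttttctt
CDC6, chr17:40287875-40287904, plus strand: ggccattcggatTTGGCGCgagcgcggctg
CDT1, chr16:88803754-88803783, plus strand: GCGGGAAatttgGCGGGAAccgcgcccgcc
GMNN, chr6:24775322-24775351, plus strand: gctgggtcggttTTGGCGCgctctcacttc
ORC3, chr6:87590111-87590140, plus strand: ccgcgagggcgcGCGGGAAatcccgagtgc

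The first letter of the match stood 22 bases before the start for ORC1, 12 for ORC3, 79 for GMNN and 35 and 23 for CDT1, and 8 bases after it for CDC6. In EBC-1 the 5 members with a match had log2 ratios from -2.16 (ORC1) to -0.94 (ORC3). The 5 without had values from -2.20 (ORC6) to 0.16 (ORC4), so that the lowest member and the 3 closest to 0 had no E2F-type match in this window. With the longer letters, which have another T in front and were present in 3.31% of promoters, 4 members had a match (ORC3, CDC6, CDT1 and GMNN). CCAAT was also searched and was present in 6 of 10 members, beside 34.6% of promoters. These were ORC1, ORC2, ORC3, ORC6, CDC6 and GMNN. The letters TTTGAA or TTCGAA were present in DBF4 alone, beside 16.4% of promoters. A match is a stretch of letters and not a measured binding site.

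The second comparison asked how the members changed when DONSON was knocked down in SBC-3 cells by 3 different siRNAs. No member passed the test, 0 of 10 at an adjusted p of 0.05, beside 7.28% of 14453 genes (3.31% lower and 3.96% higher). At an unadjusted p under 0.05, 2 of 10 did, beside 28.6%. ORC1 was lower on all 3 arrays, and CDC6 was low with siDONSON-1 and siDONSON-3 and not with siDONSON-2. Over the whole series, ORC1 and ORC2 were below 0 on every array and CDC6 on every array but that of siDONSON-2. A value below 0 for these genes is thus not particular to DONSON knockdown. The median of the 10 means was -0.06, and that of all genes 0.03.

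ORC1 was at -0.36 with siDONSON-1, -1.04 with siDONSON-2 and -0.38 with siDONSON-3. Its mean log2 ratio was -0.59 ± 0.39 (SD, n = 3), with an SE of 0.15 and a limma adjusted p of 0.0634. CDC6 was at -0.96, 0.19 and -0.87, with a mean of -0.55 ± 0.64 (SD, n = 3; limma adjusted p = 0.194). Its probe was dim in SBC-3, with treated intensities of 52.9, 89.7 and 54.0 against 103, 78.6 and 98.3 in the controls. With normexp and loess, CDC6 was at -0.20, 0.03 and -0.18 and ORC1 at -0.08, -0.37 and -0.11. The siDONSON-2 array was thus the lowest for ORC1 and the highest for CDC6. ORC2 was at -0.51, -0.01 and -0.32, with a mean of -0.28 ± 0.26 (limma adjusted p = 0.163). CDT1 was at -0.06, 0.64 and 0.02 and ORC6 at -0.27, 0.49 and -0.17, again with siDONSON-2 above the others, and their means of 0.20 and 0.02 did not differ from 0 beyond the spread (limma adjusted p = 0.406 and 0.945).

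ORC3 was at 0.17, 0.30 and -0.62, and both of its probes were low only with siDONSON-3, at -0.70 and -0.53. Geminin was at -0.07, -0.09 and -0.19 and DBF4 at -0.05, -0.07 and -0.10, the narrowest ranges among the members. ORC4 and ORC5 had means of 0.10 and 0.10 (limma adjusted p = 0.443 and 0.493). Below 0 on all 3 arrays were 4 of 10 members, ORC1, ORC2, GMNN and DBF4, beside 18.6% of all genes.

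**Figure D4:**
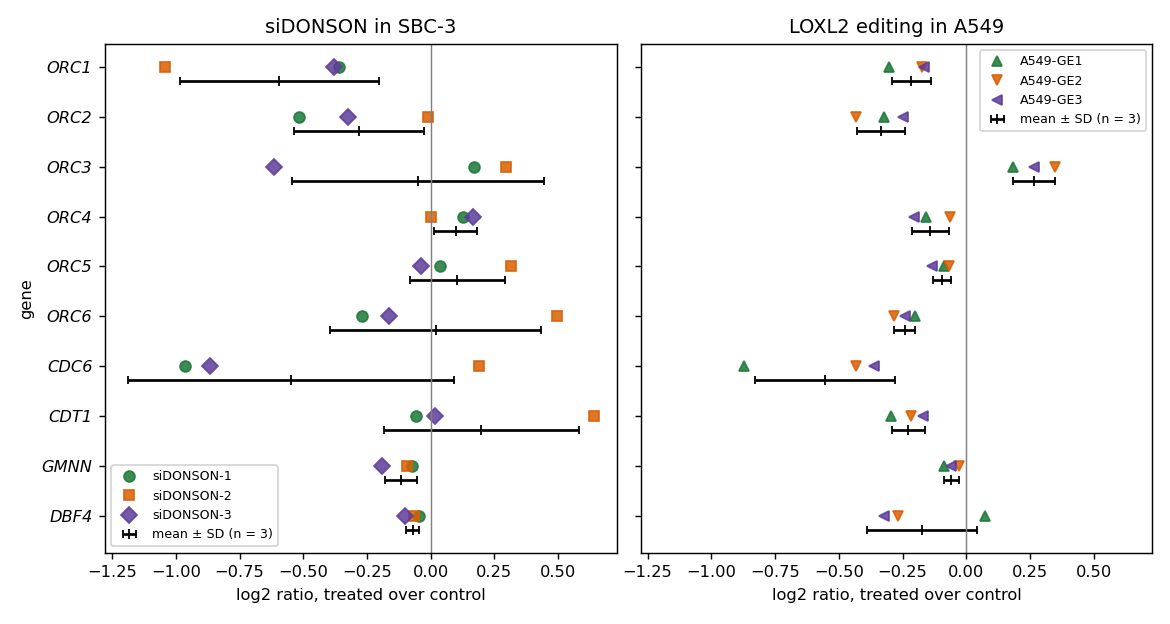
Log2 ratios of the licensing genes on the 3 siDONSON arrays of SBC-3 (left) and the 3 LOXL2 editing arrays of A549 (right), with the mean ± SD (n = 3) under each row. The siDONSON-2 squares stand to the right of the other siRNAs for CDC6, CDT1 and ORC6 and to the left for ORC1, while the A549 arrays lie close together except for CDC6 and DBF4.

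The siDONSON-2 array stood apart from the others, in ways described after the values were seen. It was above both other siRNAs by over 0.5 for 3 of 10 members (ORC6, CDC6 and CDT1), beside 6.61% of all genes. It was above both for 6 of 10, beside 37.7%. On the same array the median of the G2/M list was -0.56 and that of the S phase list 0.02, against 0.01 and -0.10 with siDONSON-1 and -0.05 and -0.27 with siDONSON-3. DONSON itself was at -1.79 there. Without siDONSON-2, 3 of 10 members passed, all lower, beside 5.39% of genes lower and 6.64% higher. They were CDC6 at -0.91 (limma adjusted p = 0.0316), ORC1 at -0.37 (0.0449) and ORC2 at -0.42 (0.0496). Leaving out siDONSON-1 or siDONSON-3 instead gave 0 of 10. The siDONSON-2 array was set apart after its values were seen and was the highest of the 3 for CDC6 and ORC2. These 3 calls are therefore no independent result. The means over all 3 siRNAs depended on background treatment. With normexp and loess, they were -0.11 for CDC6, -0.19 for ORC1 and -0.10 for ORC2, against -0.55, -0.59 and -0.28. Of the 29 partners, 0 passed over all 3 arrays, beside 7.28% of all genes.

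The third comparison asked how the members changed when LOXL2 was edited in A549 cells. Most members were slightly lower, but 0 of 10 passed, beside 16.9% of 15531 genes. At an unadjusted p under 0.05, 1 of 10 did, ORC2, beside 33.7%. Below 0 on all 3 arrays were 8 of 10 members, beside 33.4% of all genes, and 1 of 10, ORC3, was above 0 on all 3, beside 36.9%. Among those below 0, ORC1 and ORC2 were so on every array of the series, and CDC6 and ORC6 on every array but that of siDONSON-2. For these genes the sign is thus not particular to LOXL2 editing. The median of the 10 means was -0.19, and that of all genes 0.02.

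CDC6 had the lowest mean. Its intensity was below the control on each array, at 134 against 244 in A549-GE1, 124 against 168 in A549-GE2 and 133 against 170 in A549-GE3. The log2 ratios were -0.87, -0.43 and -0.36, with a mean of -0.55 ± 0.28 (SD, n = 3; limma adjusted p = 0.161). ORC2 was at -0.32, -0.43 and -0.25, with a mean of -0.33 ± 0.09 (limma adjusted p = 0.0922). Its probes disagreed in size, at -0.51, -0.69 and -0.42 for the brighter and -0.14, -0.18 and -0.08 for the other. With the brightest probe alone, ORC2 was at -0.54 and passed (limma adjusted p = 0.0285).

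ORC3 was at 0.18, 0.35 and 0.26, the only member with a mean above 0, at 0.27 ± 0.08 (limma adjusted p = 0.346). ORC6 was at -0.20, -0.29 and -0.24, CDT1 at -0.29, -0.22 and -0.17 and ORC1 at -0.30, -0.18 and -0.17. These 3 genes had values within about 0.1 of each other on the A549 arrays, and their limma adjusted p-values were 0.317, 0.320 and 0.354. ORC4, ORC5 and GMNN had means of -0.14, -0.10 and -0.06 (limma adjusted p = 0.252, 0.513 and 0.614). DBF4 was at 0.07, -0.27 and -0.32, where the A549-GE1 value included a dim probe at 0.48 that was above background on the treated side only. Its bright probe was at -0.34, -0.27 and -0.32, and by the brightest probe DBF4 passed at -0.31 (limma adjusted p = 0.0304), which with ORC2 made 2 of 10, both lower, beside 8.36% of genes lower.

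The test pools the spread of the A549 arrays with that of the SBC-3 arrays, which varied more. With the spread of the A549 arrays alone, 6 of 10 members passed, beside 36.2% of all genes, with CDC6, CDT1, ORC1, ORC2 and ORC6 lower and ORC3 higher. Of the 29 partners, 3 were lower and 1 was higher in the pooled fit, beside 8.12% of all genes lower and 8.78% higher: CDK2, the kinase of cyclins E and A, at -0.94 (limma adjusted p = 0.00966), KMT5A, a histone H4 methyltransferase, at -0.45 (0.0199), MCM7 at -0.38 (0.0238) and CUL4B, a ubiquitin ligase scaffold, higher at 0.45 (0.0369).

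The siDONSON and LOXL2 means were then compared directly, a difference in which treatment and cell line cannot be told apart and a dye bias alike on all arrays cancels. None of the members differed (0 of 10, limma adjusted p from 0.218 to 0.992), beside 6.93% of 13655 genes. At an unadjusted p under 0.05, 0 of 10 did, beside 27.4%. For CDC6 the difference of the log2 ratios was 0.01, with a 95% interval from -0.81 to 0.83. For CDT1 it was 0.43, from -0.07 to 0.92, and for ORC1 -0.38, from -0.88 to 0.13. The intervals were narrower for GMNN, from -0.31 to 0.19, and for ORC4, from -0.03 to 0.50.

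The control channel gave the level of each member in the untreated lines, compared between lines within a probe only. The values are relative to the 75th percentile, and a position is given in words only where it was the same with the median and with normexp. ORC6 was highest in EBC-1 at 2.84 and lowest in SK-MES-1 at 0.85, with SBC-3 at 2.48 (range over 3 arrays 2.47 to 2.49) and A549 at 2.32 (2.30 to 2.34) between them. CDC6 was also highest in EBC-1, at 0.21, followed by A549 at -0.19 (-0.39 to 0.18), SK-MES-1 at -0.56 and SBC-3 at -1.27 (-1.43 to -1.18). With the median, EBC-1 exceeded A549 by only 0.02 for CDC6. CDT1 was higher in the squamous lines, at 4.61 in EBC-1 against 4.25 in SK-MES-1, than in SBC-3 at 4.05 and A549 at 3.89. ORC1 was at 1.11 in EBC-1, above SBC-3 at 0.74 (0.63 to 0.87) and A549 at 0.54 (0.52 to 0.56), and SK-MES-1 was at 0.72.

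The core subunits followed other orders. ORC3 was lowest in EBC-1 at both probes, by 1.81 and 1.26 against SK-MES-1, and SBC-3 and A549 overlapped in this scaling. Of 27010 probes, 18.6% had a level over 1 lower in EBC-1 compared with SK-MES-1. ORC2 was lowest in EBC-1 and highest in A549 at both probes, which placed SK-MES-1 and SBC-3 in opposite orders. ORC4 was higher in A549 and SBC-3 than in the squamous lines at both probes. ORC5 was higher in EBC-1 and A549 than in SBC-3 and SK-MES-1 at both, with EBC-1 above SK-MES-1 by 1.66 and 1.70, beside 18% of probes higher in EBC-1 by over 1. GMNN was at 4.65 in A549 and 4.65 in SBC-3, which overlapped in this scaling, at 4.44 in EBC-1 and at 4.26 in SK-MES-1. DBF4 was at 2.16 in A549 (2.10 to 2.20), 1.77 in EBC-1, 1.40 in SBC-3 (1.35 to 1.46) and 0.88 in SK-MES-1, an order that was the same in each scaling. As EBC-1 and SK-MES-1 had 1 array each, their spread is unknown.

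**Figure D5:**
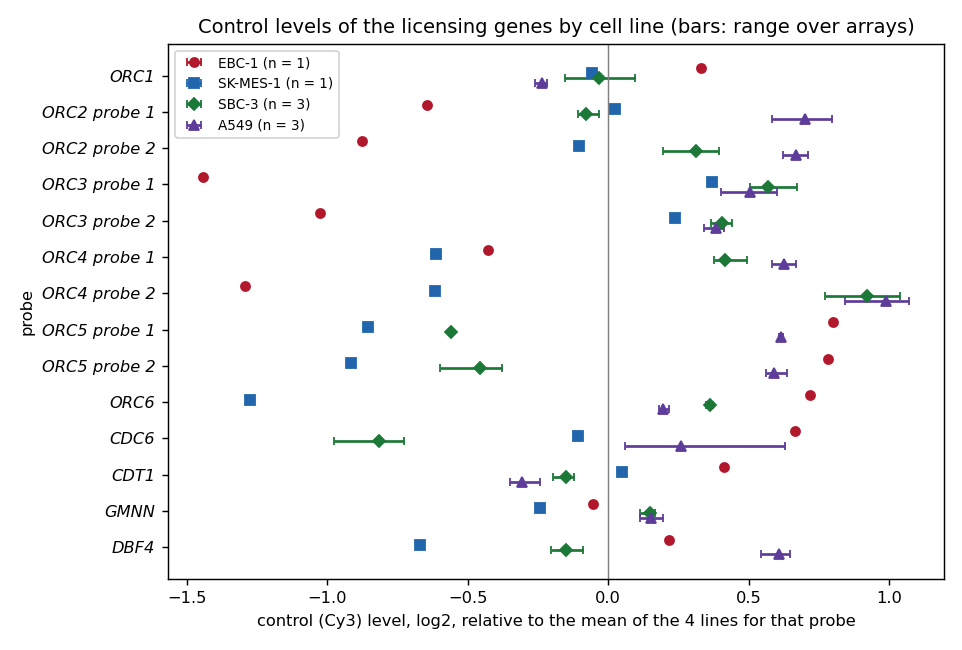
Control (Cy3) level of each probe of the licensing genes in the 4 lines, as the log2 difference from the mean of the lines for that probe, with bars for the range over the 3 arrays of SBC-3 and of A549. Levels are relative to the 75th percentile of each array. EBC-1 stands at the right for ORC6 and CDC6 and at the left for ORC2 and ORC3, and SK-MES-1 stands at the left for ORC6 and DBF4. With the median instead, EBC-1 is below SK-MES-1 for ORC1, CDT1 and GMNN.

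Likeness of pattern was measured as the root mean square difference of log2 ratios over the 8 arrays, which share a slide and a dye orientation. Among 9844 candidate genes, those nearest to ORC1 were BUB1, a mitotic checkpoint kinase, at 0.13, CCNA2 (cyclin A2) at 0.15 and RAD54L, a recombination factor, at 0.18. Like ORC1, BUB1, CCNA2 and RAD54L had their lowest SBC-3 value with siDONSON-2, at -1.02, -1.03 and -0.72. That array entered the measure by which they were chosen, so this is no separate likeness. Nearest to CDC6 were the histone H4 genes H4C8, H4C12 and H4C9, at 0.25 to 0.27, which share near-identical sequences, so that their probes may not tell them apart. Nearest to CDT1 were ITPKA, an inositol trisphosphate kinase, at 0.09, the recombination factor XRCC3 at 0.13 and the helicase DDX11 at 0.14, and nearest to GMNN were TROAP at 0.08, MTHFD1, a folate enzyme, at 0.10 and CPAP, a centriole protein, at 0.12. Among the members themselves, GMNN and DBF4 were the closest pair at 0.22, followed by ORC4 and ORC5 at 0.27, and ORC1 and ORC4 were the farthest at 0.94. CDT1 and ORC6, which were both higher with siDONSON-2, differed by 0.28.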

How the data were processed

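Total RNA was labeled with Cy3 (control) and Cy5 (treated) and hybridized to 8 Agilent arrays. The authors deposited the output of Feature Extraction 12.1.1.1 (protocol GE2_1200_Dec17), in which the processed intensities of both channels had been background-subtracted and dye-normalized, with a log10 ratio and its error. Their deposited table of log10 ratios was equal to that of the array output and served as an alternative. The p-values of the software were not used. The sources used here name hg19 as the array's build, and names and promoters came from RefSeq (GRCh38.p14).

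Log2 ratios (treated over control) were computed from the processed intensities. Control spots and outlier spots (81 to 133 per array) were left out, the spots of each probe were then averaged. A gene's value was the mean of its probes that were well above background in at least 1 channel. No spot was saturated (0). Of 33080 RefSeq probes, 31104 matched a symbol. Signal well above background was found at 41.1% to 46.4% of spots in green and 48.5% to 56.2% in red. Precision is limited by the number of arrays.

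Group means were tested with limma 3.58.1 (R 4.3.3) over all genes, with Benjamini-Hochberg adjustment at 0.05. For siDONSON, LOXL2 and their difference, each squamous line had its own coefficient, leaving 4 residual degrees of freedom. For miR-150-3p over both lines, 5 were left. Gene-specific dye bias is not removed from means against 0. The green channels of arrays of a line differed by an SD of 0.10 to 0.12 (SBC-3) and 0.07 to 0.08 (A549) in log2, and the red by 0.33 to 0.46 and 0.11 to 0.14. If the control of a line was 1 RNA, its own spread is left out. The fit was tested on simulated data. Members and lists were chosen with earlier results of these data known. The named genes were the members, DONSON and LOXL2, the 3 genes nearest to each of ORC1, CDC6, CDT1 and GMNN, and partners past the threshold or among the lowest 3 in EBC-1, while CCNE1 and the genes of breakdown were named after their values were seen. Leukocyte, fibroblast and endothelial markers were also looked up in the control channel: PTPRC and COL1A1 were above background in all lines, CD3E in EBC-1 and SBC-3 and CDH5 in the squamous lines.

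The alternatives were normexp with loess, median centring, other filters, the brightest probe, the deposited table, subtraction of other arrays, other thresholds, other estimates of spread, and leaving out arrays. The array output held median signals, which normexp therefore used with an offset of 50.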

Additional observations from a re-analysis of the deposited data

Results flagged for a closer look

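Geminin and ORC5 were on opposite sides of 0 after transfection of miR-150-3p in the squamous lines. GMNN had a log2 ratio of -1.10 in EBC-1 against 0.15 in SK-MES-1. ORC5 had a log2 ratio of -0.49 in EBC-1 against 0.0874 in SK-MES-1, with both probes lower in EBC-1, at -0.28 and -0.69. Each line had 1 array, and the difference was not tested.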

How the results depend on the processing

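In EBC-1, 6 members were below -1, against 2 with normexp and loess, and 6 or 7 under the other alternatives. In SK-MES-1, 0 were below -1 under every alternative run. For LOXL2 editing the main fit called 2625 of 15531 genes. With normexp and loess, 3 members passed (CDC6, DBF4 and ORC2), beside 3964 genes in all. With the brightest probe 2 passed (DBF4 and ORC2), both lower, beside 2762 genes in all and 8.36% of 15531 genes lower. With both channels required above background 1 did (DBF4), beside 2887. These totals were all above that of the main fit, and a share of all genes was not computed for each setting. The member counts are therefore not read as a result about the members. With own arrays alone 6 passed, beside 36.2% of all genes. Leaving out 1 array of A549 gave 0 to 0 members. For siDONSON, 1 member, ORC1, passed with no filter on dim probes (limma adjusted p = 0.0456), beside 3786 genes in all. With both channels required 1, ORC1, passed (limma adjusted p = 0.0451), beside 1456 genes. Both totals were above the 1052 of 14453 genes called in the main fit, so these calls are not read as a result about ORC1. Leaving out 1 siDONSON array gave 0 to 3 members, beside 15 to 1772 genes. The 3 came without siDONSON-2, beside 5.39% of 14734 genes lower and 6.64% higher. Without siDONSON-1 or siDONSON-3 the count was 0, beside 431 and 15 genes. For miR-150-3p over both lines, leaving out 1 line left 1 array with no spread of its own, so no count is given for it. The difference between siDONSON and LOXL2 had 0 members throughout. No value past a threshold changed direction. Values near 0 did, and on the SK-MES-1 array CDC6, ORC1 and ORC2 were at 0.14, 0.16 and 0.19 relative to the mean of the siDONSON and LOXL2 arrays. In EBC-1 the same subtraction moved CDC6 from -1.63 to -1.08, ORC1 from -2.16 to -1.76 and ORC2 from -0.13 to 0.18. Control levels differed by over 1 in 30 of 84 pairs of lines at 14 probes, in 34 with the median and in 8 with normexp. The sign changed in 15 and 13 pairs, none of them among the 30.

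Counts over all genes moved more. For siDONSON they were 1052, against 2205 with normexp and loess, 3786 with no filter, 9 with own arrays alone, 42 against a fold of 1.2 and 15 to 1772 without 1 array. For LOXL2 they were 2625, against 3964, 6030, 5629, 676 and 336 to 547. For miR-150-3p over both lines they were 369, against 1654 with normexp and loess, 198 with no filter, 795 with both channels and 0 with own arrays alone. For the difference they were 946, against 2249 with normexp and loess and 35 to 1502 without 1 array. Genes below -1 numbered 892 (EBC-1) and 205 (SK-MES-1), against 259 and 19 with normexp and loess, 1170 and 575 with no filter, and 2048 and 760 at a threshold of 1.5 times. The cause was not tested, apart from fewer arrays or the smaller threshold. No paired analysis was possible because each array already sets a treated RNA against its own control, and the numbers 1 to 3 of the siRNAs and of the edited populations mark no shared sample.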

Other observations

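The array of siDONSON-2, on which CDC6, CDT1 and ORC6 were higher than with the other siRNAs by over 0.5, held 4 of 29 licensing partners that were higher by as much, SKP2, CCNE2, E2F1 and E2F2, beside 6.61% of all genes. These genes are named here after their values were seen. E2F2 was at 0.82 with siDONSON-2, against -0.24 and -0.43 with siDONSON-1 and siDONSON-3, and CCNE2 was at 0.63, against -0.86 and -0.52. E2F3 was at -0.26, against -0.06 and 0.03, and CCNE1 at -0.32, against -0.05 and -1.04. RB1, which encodes the retinoblastoma protein, was at -1.33 (software error 0.24) with siDONSON-2, against 0.19 and 0.28. The means of RB1, E2F2 and CCNE2 over the 3 siRNAs did not pass the test (limma adjusted p = 0.571, 0.906 and 0.576). Each siRNA had 1 array, and no difference between siRNAs was tested.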
